A study of Mus musculus with 36 samples.

Results

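The interferon response genes are genes whose transcription follows interferon signalling, together with the receptor chains and transcription factors that carry the signal. A list of 44 such genes was read in the hypothalamus of mice given TNFα, IL-6 or both. Of the 44, 42 had a transcript cluster annotated to that gene alone, and the cluster of highest mean stood for the gene. Ifi44 was not in the annotation used, and Parp9 was named only by clusters shared with its neighbour Dtx3l. Of the 42, 41 passed the filter on low intensity, among 15049 of 18820 genes that passed in all. The gene that did not pass was Mx1, a dynamin-like antiviral GTPase, with an intensity of 7.15 to 12.6 and no array over 20.

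Type I interferons bind a receptor made of the chains IFNAR1 and IFNAR2 and act through JAK1 and TYK2. The signal reaches the nucleus through the factor ISGF3, which holds STAT2 and IRF9. ISGF3 binds the interferon-stimulated response element in the promoters of its target genes. The products of those genes sense viral RNA and DNA, block translation, degrade RNA, tag proteins with ISG15 or feed peptides to MHC class I. In the brain, microglia, endothelial cells, meningeal cells and neurons can all express such genes. TNFα and IL-6 use other receptors and act mainly through NF-κB and STAT3.

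All mice were male C57BL/6 and received 50 µl intraperitoneally 5 h before the hypothalamus was taken. Control mice received saline. TNF mice received 15 pg of TNFα, IL-6 Low mice 50 pg of IL-6 and IL-6 High mice 800 pg of IL-6. TNF + IL-6 Low mice received 15 pg of TNFα with 50 pg of IL-6, and TNF + IL-6 High mice 15 pg of TNFα with 800 pg of IL-6. Each of the 6 groups had 6 arrays, 1 per mouse, out of 12 mice per group in the study, and the labels call the TNFα treatment low while the methods name 1 dose. TNF replicate 4 stood apart, with a median correlation of 0.270 to the other arrays against 0.972 to 0.988 for the remaining 35, and was left out, so that TNF has 5 arrays. Control replicates 5 and 6 carry other mouse numbers in the array names than in the labels. In those names stand the numbers that the labels give to replicates 5 and 6 of TNF + IL-6 High. Names and labels both state Control as the group, and the arrays were used as such.

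Of 14 hypothalamic marker genes tested, 12 were over an intensity of 20 on all 35 arrays, among them Npy, Pomc, Hcrt, Avp and Oxt. Crh was over it on 34 arrays and Rax on 5. The arrays measured bulk tissue, in which fewer cells of a type and less RNA per cell cannot be told apart. The number of arrays limits the precision, with a median standard error of 0.12 on the log2 scale for a member against Control. Intensities of different genes were not compared, since probes differ in brightness.

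The response element joins both parts of the interferon signal, the factor and its targets, so promoter stretches of 6 members that hold it are shown. They come from RefSeq (build GRCm38.p6), run 5′ to 3′ in the direction of transcription, and carry the element's core in capitals. The core searched was GAAANNGAAA, or its reverse complement TTTCNNTTTC, where overlapping cores are merged in capitals. Windows ran from 250 bases before to 50 bases after the annotated start of the gene.
Ifit1, chr19:34640765-34640833, plus strand: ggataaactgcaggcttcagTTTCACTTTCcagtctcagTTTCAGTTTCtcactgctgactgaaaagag
Ifit3, chr19:34583353-34583436, plus strand: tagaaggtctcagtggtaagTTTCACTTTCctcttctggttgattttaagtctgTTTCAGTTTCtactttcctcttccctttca
Isg15, chr4:156200855-156200916, minus strand: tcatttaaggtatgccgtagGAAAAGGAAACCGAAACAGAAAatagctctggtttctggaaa
Oas1a, chr5:120907526-120907565, minus strand: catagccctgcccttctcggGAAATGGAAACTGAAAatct
Rsad2, chr12:26456543-26456592, minus strand: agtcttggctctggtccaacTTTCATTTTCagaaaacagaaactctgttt
Stat2, chr10:128270256-128270305, plus strand: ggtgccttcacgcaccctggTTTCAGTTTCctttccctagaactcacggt
Ifit1 and Ifit3 each hold 2 separate cores, Isg15 holds 3 that overlap, and Oas1a holds 2 that overlap next to its start. Of the members, 34 had a window in the table, and 13 of these held a core (38.2%), against 3.99% of 27025 genes. The other members with a core were Bst2, Eif2ak2, Gbp2, Gbp3, Ifih1, Ifitm3 and Trim30a. A match is a string of letters and was not tested for binding.

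No interferon response gene differed between any treated group and Control in limma's test (adjusted p under 0.05 for 0 of 41 members and 0% of all genes, in each of 10 comparisons). Besides the 5 treated groups against Control, the 10 held the mean of these groups against Control and the test for any difference. They also held the comparison of IL-6 doses and the departures from additive effects. The lowest adjusted p of any member was 0.511, for Oas1a and Trim30a in TNF + IL-6 Low. No member moved past 1.5-fold in any group, beside 0.213% of all genes after TNFα alone. That background was 0.0266% for IL-6 Low, 0.133% for IL-6 High, 0.279% for TNF + IL-6 Low and 0.0664% for TNF + IL-6 High. No member had treated arrays that were all above or all below the Control arrays, beside 0.246%, 0.0664%, 0.0332%, 0.193% and 0.159% of all genes in the same order. Since 1 gene makes up 2.44% of the members, 0 does not set them apart from all genes in either count. What the arrays bound is the size of a rise in intensity. The upper 95% confidence limit of the difference from Control lay below 1.5-fold (0.585 on the log2 scale) for 40 of 41 members in TNF + IL-6 Low and for 41 of 41 in each of the other 4 treated groups. It lay below 2-fold for all 41 tested members in all 5 groups. These limits are per gene and are not adjusted for the number of genes.

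**Figure D1:**
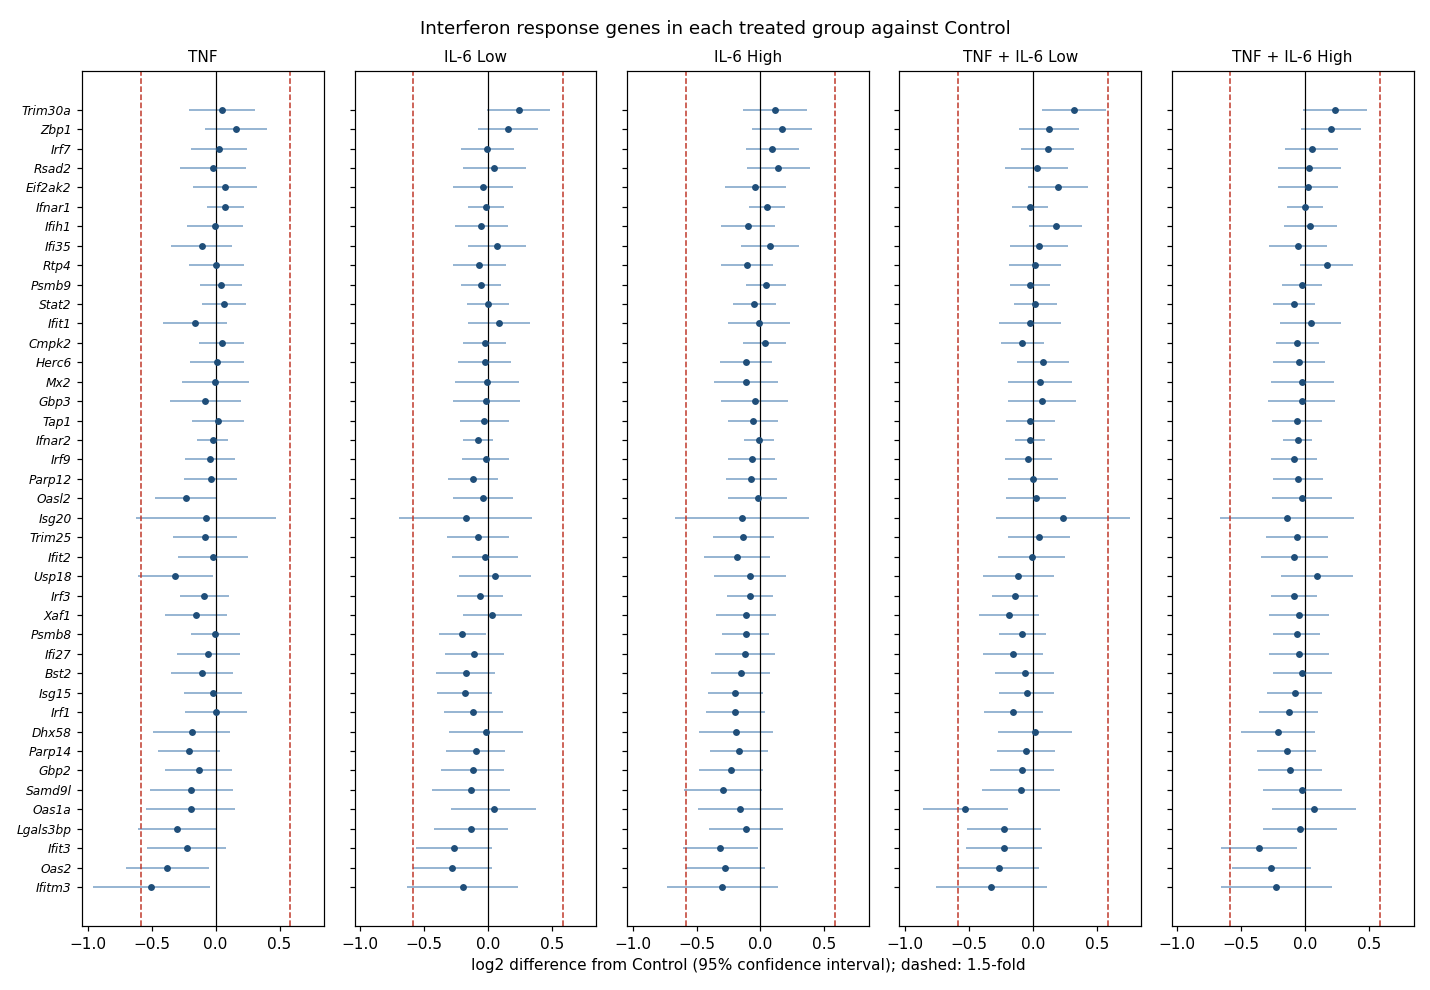
Log2 difference from Control (x axis) of the 41 interferon response genes tested (rows, ordered by the mean over the 5 groups) in each treated group, from the linear model over 35 arrays. Points are estimates, bars are 95% confidence intervals and dashed lines mark 1.5-fold. Only the bar of Isg20 in TNF + IL-6 Low crosses the right dashed line, at 0.76.

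At an unadjusted p under 0.05, 3 of 41 members were counted in TNF, beside 5.29% of all genes. IL-6 Low gave 1 beside 1.40%, IL-6 High gave 1 beside 2.07%, TNF + IL-6 Low gave 2 beside 9.58%, and TNF + IL-6 High gave 1 beside 2.05%. These shares of members, 7.32%, 2.44%, 2.44%, 4.88% and 2.44%, stood near the background, since 1 gene makes up 2.44% of the members. The mean of the 5 treated groups against Control gave 2 of 41 beside 3.08%, and the test for any difference among the 6 groups gave 1, Oas1a, beside 3.01%. The count in TNF depended on Control arrays: it was 1 (beside 3.71% of all genes) without Control replicate 1 and 6 (beside 6.63%) without Control replicate 6. Leaving out Control replicate 6 gave 4 for IL-6 High (2.71%), and leaving out TNF + IL-6 Low replicate 3 gave 6 for its group (9.43%). With Control replicates 5 and 6 both left out, a setting chosen after seeing the data because of their mouse numbers, 0 members had an adjusted p under 0.05 in limma. The counts at an unadjusted p under 0.05 were then 8 for TNFα alone (6.58% of all genes) and 2 and 5 for the lower and higher IL-6 dose alone (2.10% and 3.42%). The combined treatments gave 4 with the lower IL-6 dose (8.27%) and 1 with the higher (2.75%). All these members were below Control, and in TNF they were Ifit1, Ifitm3, Lgals3bp, Oas1a, Oas2, Oasl2, Parp14 and Samd9l. Ifitm3 in TNF (-0.67) and Oas1a in TNF + IL-6 Low (-0.71) were then past 1.5-fold, and the counts of members below Control were 30, 36, 34, 32 and 32 of 41.

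Small differences below Control were more frequent among the members than among all genes in these arrays, and this excess was not tested. In TNF, 29 of 41 members had a mean below Control (70.7%, against 44.6% of all genes), with a median difference of -0.04 against 0.01. In IL-6 Low, 33 of 41 did (80.5% against 54.1%), with medians of -0.04 and -0.01. In IL-6 High, 33 of 41 did (80.5% against 47.4%), with medians of -0.10 and 0.00. TNF + IL-6 High had 31 of 41 below Control (75.6% against 62.3%), and the medians were -0.05 and -0.02. In TNF + IL-6 Low, 24 of 41 were below (58.5% against 55.9%), and with median centring of the arrays 17 of 41 were. The mean over the members stood at -0.08 after TNFα alone, at -0.05 and -0.09 after the lower and higher IL-6 dose, and at -0.03 and -0.05 after TNFα with each of these doses. This mean had an SD of 0.08 among arrays of a group. Markers of fibroblasts of the meninges, the membranes that cover the brain, lay below Control in the same groups: 11 of 12 in TNF and in TNF + IL-6 High, and 12 of 12 in the other 3. Endothelial markers lay below in 11 of 11 genes in TNF and IL-6 High, and TNF + IL-6 High had 9 below, TNF + IL-6 Low 7 and IL-6 Low 5. Markers of microglia and macrophages lay above Control in 10 of 11 genes after TNFα alone, 9 and 6 after the lower and higher IL-6 dose, and 3 and 8 after TNFα with each. Below Control in that order of groups were 12, 13, 4, 12 and 11 of 14 hypothalamic markers and 1, 4, 5, 7 and 6 of 8 astrocyte markers. Oligodendrocyte markers gave 0, 3, 4, 6 and 0 of 6, and choroid plexus markers 4, 5, 5, 5 and 4 of 8. Blood cell markers gave 1, 1, 2, 2 and 2 of 5, and pituitary markers 3, 3, 2, 0 and 0 of 6. The part of any of these cell types in the members' values was not tested.

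All 5 comparisons share the same Control arrays. Against them, 15 of 41 members were lower in all 5 groups (36.6%, against 17.3% of all genes): Bst2, Gbp2, Ifi27, Ifit2, Ifit3, Ifitm3, Ifnar2, Irf3, Irf9, Isg15, Lgals3bp, Oas2, Parp14, Psmb8 and Samd9l. Trim30a and Zbp1 were higher in all 5 (4.88%, against 13.5%).

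In what follows, a gene is given by the lowest, median and highest log2 intensity among the 6 arrays of a group, and in TNF by replicates 1, 2, 3, 5 and 6 in that order. Differences are log2 intensities of the treated mean minus the Control mean, with TNF first, then IL-6 Low before IL-6 High, and last TNF + IL-6 Low before TNF + IL-6 High. The receptor chains were the steadiest members. Ifnar1 read 7.69, 7.83 and 7.92 in Control and 7.94, 7.91, 7.80, 7.86 and 7.99 on the TNF arrays. Ifnar1 gave 7.62, 7.82 and 7.93 on IL-6 Low arrays, 7.74, 7.89 and 8.00 on IL-6 High arrays, 7.64, 7.82 and 7.94 on TNF + IL-6 Low arrays and 7.61, 7.84 and 7.97 on TNF + IL-6 High arrays. The arrays of each group lay within a narrow band that overlapped Control, and the differences were 0.08, -0.01, 0.05, -0.02 and 0.00, with upper limits from 0.12 to 0.22. Ifnar2 read 7.07, 7.22 and 7.30 in Control and 7.20, 7.17, 7.19, 7.12 and 7.21 on the TNF arrays. Ifnar2 gave 7.03, 7.12 and 7.25 on IL-6 Low arrays, 7.13, 7.16 and 7.28 on IL-6 High arrays, 7.08, 7.18 and 7.27 on TNF + IL-6 Low arrays and 6.98, 7.18 and 7.22 on TNF + IL-6 High arrays. Ifnar2 had the smallest within-group SD of the 41 members, 0.08, and differences of -0.02, -0.08, -0.01, -0.02 and -0.06.

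STAT2 and IRF9 are subunits of ISGF3. Stat2 read 6.36, 6.58 and 6.82 in Control and 6.55, 6.67, 6.64, 6.56 and 6.80 on the TNF arrays. Stat2 gave 6.24, 6.61 and 6.75 on IL-6 Low arrays, 6.39, 6.53 and 6.67 on IL-6 High arrays, 6.56, 6.59 and 6.65 on TNF + IL-6 Low arrays and 6.31, 6.47 and 6.72 on TNF + IL-6 High arrays. Stat2 differed from Control by 0.06, 0.00, -0.05, 0.02 and -0.09, and every treated group overlapped Control. Irf9 read 6.29, 6.55 and 6.78 in Control and 6.62, 6.49, 6.63, 6.37 and 6.39 on the TNF arrays. Irf9 gave 6.46, 6.51 and 6.61 on IL-6 Low arrays, 6.36, 6.45 and 6.64 on IL-6 High arrays, 6.25, 6.50 and 6.74 on TNF + IL-6 Low arrays and 6.08, 6.48 and 6.72 on TNF + IL-6 High arrays. The differences of Irf9 were -0.04, -0.02, -0.07, -0.04 and -0.09, the largest being under the within-group spread of Control, 0.19.

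The other interferon regulatory factors act before or beside the receptor. IRF3 is the constitutive factor that starts transcription of interferon genes, and IRF7 is the induced factor that amplifies it. Irf3 read 5.75, 5.88 and 6.06 in Control and 5.99, 5.79, 5.55, 6.09 and 5.71 on the TNF arrays. Irf3 gave 5.70, 5.84 and 6.02 on IL-6 Low arrays, 5.77, 5.83 and 5.89 on IL-6 High arrays, 5.53, 5.81 and 5.92 on TNF + IL-6 Low arrays and 5.56, 5.82 and 6.04 on TNF + IL-6 High arrays. Irf3 had differences of -0.09, -0.06, -0.08, -0.14 and -0.08, all below Control. Irf7 read 4.47, 4.57 and 4.86 in Control and 4.46, 4.47, 5.00, 4.75 and 4.47 on the TNF arrays. Irf7 gave 4.32, 4.63 and 4.76 on IL-6 Low arrays, 4.45, 4.74 and 4.83 on IL-6 High arrays, 4.49, 4.73 and 4.87 on TNF + IL-6 Low arrays and 4.44, 4.61 and 5.01 on TNF + IL-6 High arrays. Irf7, often taken as a sensitive readout of type I interferon, differed by 0.03, -0.01, 0.09, 0.12 and 0.05, and its upper limits lay between 0.20 and 0.33. The intensity of Irf7 was low, from 20.0 to 32.3, and so close to the filter of 20. IRF1 is a factor induced by interferon gamma and by NF-κB. Irf1 read 4.92, 5.13 and 5.28 in Control and 5.05, 4.92, 5.42, 5.04 and 5.14 on the TNF arrays. Irf1 gave 4.79, 5.00 and 5.34 on IL-6 Low arrays, 4.71, 4.93 and 5.08 on IL-6 High arrays, 4.59, 4.92 and 5.47 on TNF + IL-6 Low arrays and 4.79, 4.99 and 5.13 on TNF + IL-6 High arrays. The differences of Irf1 were 0.00, -0.11, -0.20, -0.15 and -0.13, with adjusted p of 0.633 or more in limma.

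The IFIT proteins bind viral RNA and block its translation. Ifit1 read 4.86, 5.11 and 5.53 in Control and 5.25, 5.05, 5.21, 4.90 and 4.73 on the TNF arrays. Ifit1 gave 4.98, 5.31 and 5.48 on IL-6 Low arrays, 5.01, 5.19 and 5.33 on IL-6 High arrays, 4.88, 5.20 and 5.44 on TNF + IL-6 Low arrays and 5.02, 5.19 and 5.47 on TNF + IL-6 High arrays. All groups of Ifit1 overlapped, and the differences were -0.16, 0.09, -0.01, -0.02 and 0.04. The upper limit of Ifit1 was 0.33 at the highest, in IL-6 Low, and 0.09 in TNF. Ifit2 read 5.26, 5.66 and 5.96 in Control and 5.73, 5.87, 5.52, 5.77 and 5.21 on the TNF arrays. Ifit2 gave 5.33, 5.56 and 6.06 on IL-6 Low arrays, 5.32, 5.36 and 5.82 on IL-6 High arrays, 5.28, 5.64 and 5.91 on TNF + IL-6 Low arrays and 5.37, 5.54 and 5.87 on TNF + IL-6 High arrays. Ifit2 showed the same overlap, with differences of -0.02, -0.02, -0.18, -0.01 and -0.08. Ifit3 read 6.07, 6.75 and 7.13 in Control and 6.24, 6.37, 6.52, 6.70 and 6.40 on the TNF arrays. Ifit3 gave 5.99, 6.49 and 6.73 on IL-6 Low arrays, 6.05, 6.41 and 6.58 on IL-6 High arrays, 6.14, 6.48 and 6.60 on TNF + IL-6 Low arrays and 6.03, 6.30 and 6.73 on TNF + IL-6 High arrays. Ifit3 was lower than Control on average in every group, by -0.23, -0.27, -0.31, -0.23 and -0.36, and 3 of the Control arrays read 6.98 or more while no treated array did. The Control group itself ran from 6.07 to 7.13, so it spanned nearly all treated arrays. Ifit3 had the lowest p among the members in both groups given the higher IL-6 dose, where limma's adjusted p was 1.0 and 0.9997. Without Control replicate 1 the differences in these groups were -0.22 and -0.27.

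**Figure D2:**
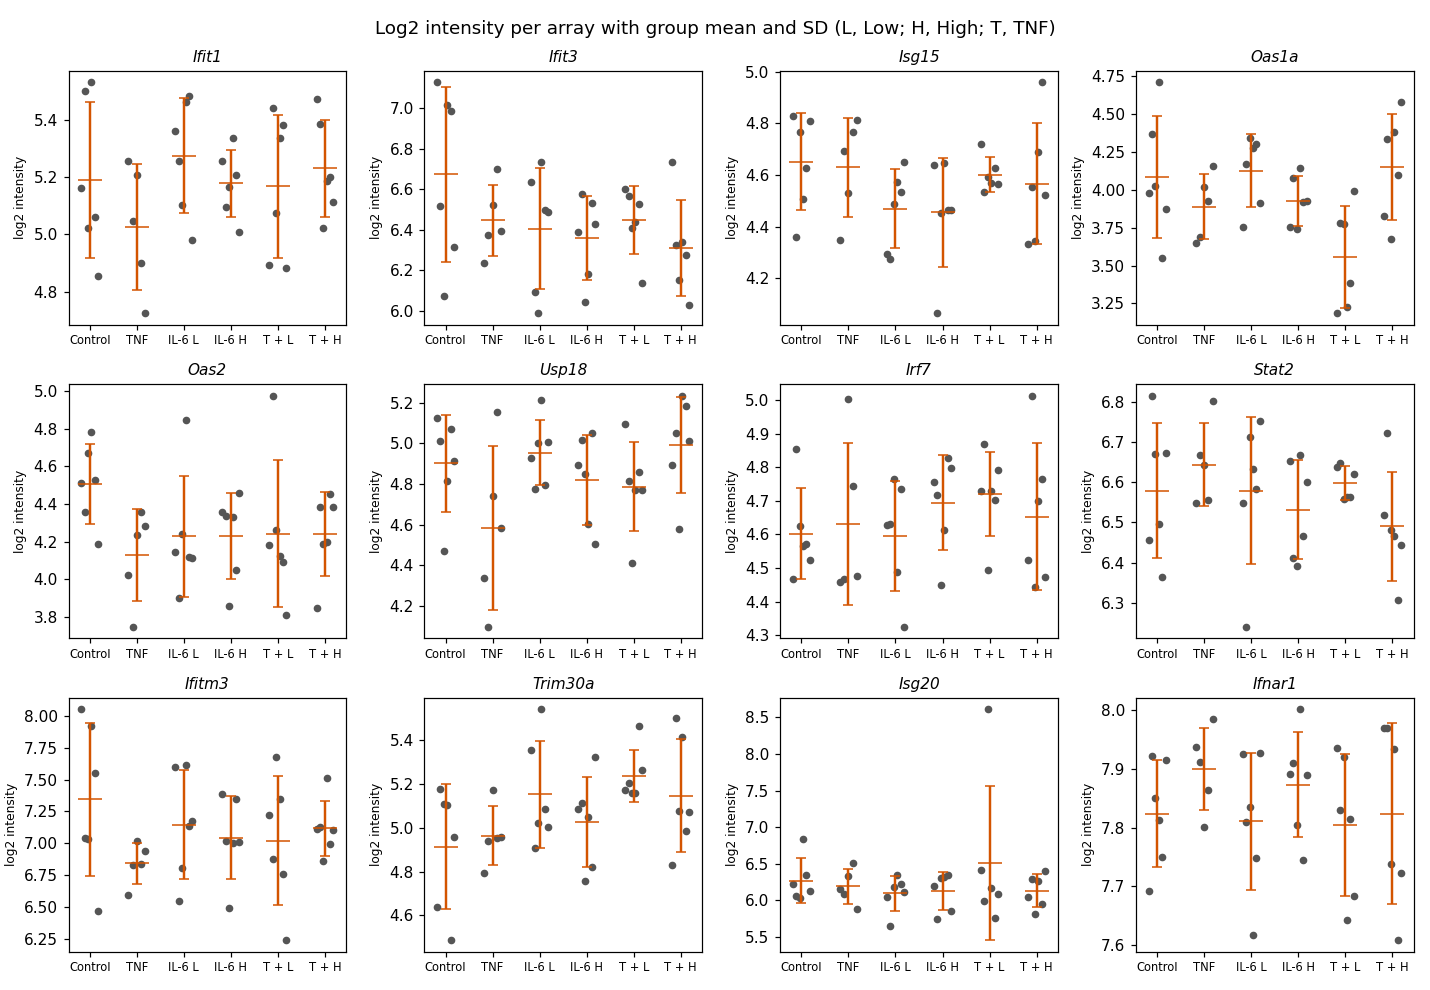
Log2 intensity (y axis) of 12 interferon response genes on each of 35 arrays (points) in the 6 groups, with the group mean (horizontal mark) and SD (bar). The groups overlap for every gene shown, and Isg20 reads 8.61 on 1 array of TNF + IL-6 Low.

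The OAS enzymes make oligoadenylates that activate RNase L. Oas1a and Oas2 were near the detection limit, with intensities over 20 on 6 and 15 of 35 arrays. Oas1a read 3.55, 4.00 and 4.71 in Control and 3.65, 3.69, 4.02, 3.93 and 4.16 on the TNF arrays. Oas1a gave 3.75, 4.23 and 4.34 on IL-6 Low arrays, 3.74, 3.92 and 4.15 on IL-6 High arrays, 3.19, 3.58 and 3.99 on TNF + IL-6 Low arrays and 3.68, 4.22 and 4.58 on TNF + IL-6 High arrays. Oas1a gave the lowest p of any member in TNF + IL-6 Low, where its mean was 3.56 ± 0.34 (SD, n = 6) against 4.09 ± 0.41 in Control (n = 6). The difference was -0.53 (95% limits -0.86 and -0.20), the adjusted p in limma was 0.511, and it ranged from -0.63 to -0.40 when 1 array was left out. Without Control replicate 5 it was -0.63, past 1.5-fold. None of the TNF + IL-6 Low arrays was over an intensity of 20 for Oas1a, against 2 in Control and 3 in TNF + IL-6 High, whose difference was 0.07. Oas2 read 4.18, 4.52 and 4.78 in Control and 4.02, 3.75, 4.23, 4.36 and 4.28 on the TNF arrays. Oas2 gave 3.90, 4.13 and 4.85 on IL-6 Low arrays, 3.86, 4.33 and 4.46 on IL-6 High arrays, 3.81, 4.15 and 4.98 on TNF + IL-6 Low arrays and 3.84, 4.29 and 4.45 on TNF + IL-6 High arrays. Oas2 lay below Control on average in all 5 groups, by -0.38, -0.28, -0.27, -0.27 and -0.26, with 2 TNF arrays under the lowest Control array. The adjusted p in TNF was 0.911 in limma, with limits of -0.70 and -0.05. Oasl2 read 5.69, 6.03 and 6.20 in Control and 5.88, 5.85, 5.63, 5.78 and 5.66 on the TNF arrays. Oasl2 gave 5.74, 5.96 and 6.15 on IL-6 Low arrays, 5.71, 6.00 and 6.29 on IL-6 High arrays, 5.74, 5.94 and 6.65 on TNF + IL-6 Low arrays and 5.77, 5.96 and 6.22 on TNF + IL-6 High arrays. Oasl2 belongs to the same family, and its differences were -0.23, -0.04, -0.02, 0.02 and -0.03.

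Rsad2 encodes viperin, which makes a chain-terminating nucleotide, and Cmpk2 is its neighbour that supplies the substrate. Rsad2 read 4.43, 4.63 and 5.27 in Control and 4.74, 4.76, 4.73, 4.90 and 4.28 on the TNF arrays. Rsad2 gave 4.38, 4.78 and 5.06 on IL-6 Low arrays, 4.60, 4.82 and 5.19 on IL-6 High arrays, 4.57, 4.72 and 4.90 on TNF + IL-6 Low arrays and 4.65, 4.68 and 4.95 on TNF + IL-6 High arrays. Rsad2 differed by -0.02, 0.05, 0.14, 0.03 and 0.03. Cmpk2 differed by 0.05, -0.02, 0.03, -0.08 and -0.06. Mx2 was over 20 on 9 of 35 arrays. Mx2 read 3.84, 4.21 and 4.38 in Control and 3.98, 4.44, 4.01, 4.12 and 4.33 on the TNF arrays. Mx2 gave 3.90, 4.22 and 4.36 on IL-6 Low arrays, 3.82, 3.96 and 4.44 on IL-6 High arrays, 3.87, 4.26 and 4.57 on TNF + IL-6 Low arrays and 3.87, 4.16 and 4.54 on TNF + IL-6 High arrays. Its differences were -0.01, -0.01, -0.11, 0.06 and -0.02, none larger than the Control SD of 0.20.

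ISG15 is a ubiquitin-like tag and USP18 removes it and also blunts the receptor. Isg15 read 4.36, 4.70 and 4.83 in Control and 4.35, 4.69, 4.53, 4.77 and 4.81 on the TNF arrays. Isg15 gave 4.27, 4.51 and 4.65 on IL-6 Low arrays, 4.06, 4.47 and 4.64 on IL-6 High arrays, 4.53, 4.58 and 4.72 on TNF + IL-6 Low arrays and 4.33, 4.54 and 4.96 on TNF + IL-6 High arrays. Isg15 overlapped Control in every group, with differences of -0.02, -0.18, -0.20, -0.05 and -0.08, and its upper limits were 0.21 at most. Usp18 read 4.47, 4.96 and 5.12 in Control and 4.34, 4.10, 4.74, 5.16 and 4.58 on the TNF arrays. Usp18 gave 4.78, 4.97 and 5.21 on IL-6 Low arrays, 4.51, 4.87 and 5.05 on IL-6 High arrays, 4.41, 4.79 and 5.09 on TNF + IL-6 Low arrays and 4.58, 5.03 and 5.23 on TNF + IL-6 High arrays. In TNF, Usp18 ranged from 4.10 to 5.16, wider than Control, and 2 of the 5 arrays were under the lowest Control array. The difference was -0.32 (limits -0.61 and -0.02, adjusted p in limma 0.911), and it was -0.20 without TNF replicate 2. The other differences of Usp18 were 0.05, -0.08, -0.11 and 0.09. Herc6, the ligase that attaches ISG15 in mice, differed by 0.01, -0.03, -0.11, 0.08 and -0.05.

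IFITM3 blocks the fusion of virus and endosome and is abundant in vessel and meningeal cells. Ifitm3 read 6.47, 7.30 and 8.05 in Control and 6.59, 6.83, 7.02, 6.83 and 6.94 on the TNF arrays. Ifitm3 gave 6.54, 7.16 and 7.62 on IL-6 Low arrays, 6.49, 7.02 and 7.39 on IL-6 High arrays, 6.24, 7.05 and 7.67 on TNF + IL-6 Low arrays and 6.86, 7.10 and 7.51 on TNF + IL-6 High arrays. Ifitm3 varied by more than 2-fold among Control mice, while all 5 TNF arrays lay between 6.59 and 7.02. The largest difference of any member in TNF was that of Ifitm3, -0.50 (limits -0.96 and -0.05, adjusted p in limma 0.911). It was -0.36 without Control replicate 1 and -0.68 without Control replicate 6, the latter past 1.5-fold. In the other groups Ifitm3 differed by -0.20, -0.30, -0.32 and -0.23. Bst2 encodes tetherin, which holds virus particles on the cell surface, and differed by -0.11, -0.18, -0.16, -0.06 and -0.02. Lgals3bp is a secreted glycoprotein. Lgals3bp read 7.91, 7.96 and 8.39 in Control and 7.46, 7.84, 7.99, 7.61 and 8.01 on the TNF arrays. Lgals3bp gave 7.75, 7.90 and 8.34 on IL-6 Low arrays, 7.82, 7.96 and 8.19 on IL-6 High arrays, 7.36, 7.82 and 8.36 on TNF + IL-6 Low arrays and 7.40, 8.15 and 8.33 on TNF + IL-6 High arrays. Its differences were -0.30, -0.13, -0.12, -0.23 and -0.04, with an adjusted p of 0.911 in TNF in limma. Samd9l, a restriction factor of poxviruses, was over 20 on 30 arrays. Samd9l read 4.17, 4.59 and 5.25 in Control and 4.40, 4.57, 4.13, 4.77 and 4.48 on the TNF arrays. Samd9l gave 4.25, 4.56 and 4.76 on IL-6 Low arrays, 3.85, 4.40 and 4.87 on IL-6 High arrays, 4.40, 4.54 and 4.79 on TNF + IL-6 Low arrays and 4.50, 4.54 and 5.01 on TNF + IL-6 High arrays. The differences of Samd9l were -0.19, -0.14, -0.29, -0.09 and -0.02, and Control alone covered more than 1 log2 unit.

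Sensors of foreign nucleic acid and their helpers followed no common direction. Ifih1 read 5.34, 5.46 and 5.61 in Control and 5.32, 5.81, 5.49, 5.37 and 5.36 on the TNF arrays. Ifih1 gave 5.15, 5.42 and 5.62 on IL-6 Low arrays, 5.19, 5.39 and 5.54 on IL-6 High arrays, 5.34, 5.65 and 5.98 on TNF + IL-6 Low arrays and 5.26, 5.47 and 5.83 on TNF + IL-6 High arrays. Ifih1, which encodes the RNA sensor MDA5, differed by -0.01, -0.05, -0.10, 0.18 and 0.04, with overlap in every group. Eif2ak2 read 5.66, 5.93 and 6.29 in Control and 6.09, 5.86, 5.91, 6.14 and 5.97 on the TNF arrays. Eif2ak2 gave 5.69, 5.85 and 6.07 on IL-6 Low arrays, 5.78, 5.81 and 6.15 on IL-6 High arrays, 5.82, 6.10 and 6.47 on TNF + IL-6 Low arrays and 5.46, 6.03 and 6.20 on TNF + IL-6 High arrays. Eif2ak2, which encodes the kinase PKR, differed by 0.07, -0.04, -0.04, 0.20 and 0.02, and each group overlapped Control. Dhx58 read 4.08, 4.47 and 4.64 in Control and 4.52, 3.94, 4.45, 4.00 and 4.26 on the TNF arrays. Dhx58 gave 4.05, 4.56 and 4.60 on IL-6 Low arrays, 3.87, 4.27 and 4.46 on IL-6 High arrays, 4.05, 4.49 and 4.75 on TNF + IL-6 Low arrays and 3.71, 4.17 and 4.54 on TNF + IL-6 High arrays. Dhx58 encodes LGP2, a regulator of those sensors, and differed by -0.19, -0.02, -0.19, 0.02 and -0.21. Dhx58 was near the detection limit, with an intensity over 20 on 19 of 35 arrays. Zbp1 read 4.22, 4.34 and 4.43 in Control and 4.60, 4.00, 4.61, 4.67 and 4.55 on the TNF arrays. Zbp1 gave 4.33, 4.48 and 4.69 on IL-6 Low arrays, 4.29, 4.44 and 4.75 on IL-6 High arrays, 3.99, 4.55 and 4.81 on TNF + IL-6 Low arrays and 4.39, 4.51 and 4.71 on TNF + IL-6 High arrays. Zbp1, a sensor of Z-form nucleic acid, was higher than Control on average in all 5 groups, by 0.16, 0.15, 0.17, 0.13 and 0.20, and was over 20 on 29 of 35 arrays. Trim30a read 4.49, 5.03 and 5.18 in Control and 4.79, 4.94, 5.17, 4.95 and 4.96 on the TNF arrays. Trim30a gave 4.91, 5.05 and 5.54 on IL-6 Low arrays, 4.76, 5.07 and 5.32 on IL-6 High arrays, 5.16, 5.19 and 5.46 on TNF + IL-6 Low arrays and 4.83, 5.07 and 5.50 on TNF + IL-6 High arrays. TRIM30A restrains signalling by Toll-like receptors. In TNF + IL-6 Low the 6 arrays of Trim30a lay between 5.16 and 5.46, and Control reached 5.18, so the groups overlapped. That difference was 0.32 (limits 0.07 and 0.57, adjusted p in limma 0.511), and it was 0.24 without Control replicate 5. The other differences of Trim30a were 0.05, 0.24, 0.11 and 0.23. Trim25, the ligase that activates the sensor RIG-I, differed by -0.08, -0.08, -0.13, 0.05 and -0.06.

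Genes of antigen processing and the guanylate binding proteins are also targets of interferon gamma. Psmb8 read 4.79, 4.96 and 5.14 in Control and 5.35, 4.89, 4.78, 5.15 and 4.64 on the TNF arrays. Psmb8 gave 4.67, 4.76 and 4.86 on IL-6 Low arrays, 4.76, 4.83 and 5.03 on IL-6 High arrays, 4.73, 4.89 and 5.00 on TNF + IL-6 Low arrays and 4.70, 4.94 and 5.02 on TNF + IL-6 High arrays. Psmb8, a catalytic subunit of the immunoproteasome, differed from Control by 0.00, -0.20, -0.11, -0.08 and -0.07. The difference in IL-6 Low had limits of -0.38 and -0.02 and an adjusted p of 0.9999 in limma. Psmb9, another such subunit, differed by 0.04, -0.05, 0.04, -0.02 and -0.03, and Tap1, a chain of the peptide transporter, by 0.02, -0.03, -0.06, -0.02 and -0.07. Gbp3 differed by -0.08, -0.02, -0.04, 0.07 and -0.03. Gbp2 read 4.89, 5.02 and 5.26 in Control and 4.90, 4.91, 5.00, 5.02 and 4.71 on the TNF arrays. Gbp2 gave 4.63, 4.93 and 5.15 on IL-6 Low arrays, 4.65, 4.83 and 4.95 on IL-6 High arrays, 4.39, 4.95 and 5.53 on TNF + IL-6 Low arrays and 4.56, 4.93 and 5.17 on TNF + IL-6 High arrays. Gbp2 was below Control in all 5 groups, by -0.13, -0.12, -0.23, -0.08 and -0.12, and reached its highest and lowest values of the 35 arrays within TNF + IL-6 Low.

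The remaining members had small differences. Parp12 and Parp14, which attach ADP-ribose to proteins, differed by -0.04, -0.12, -0.07, 0.00 and -0.06 and by -0.21, -0.10, -0.17, -0.05 and -0.15. Xaf1, which opposes an inhibitor of apoptosis, differed by -0.15, 0.03, -0.12, -0.18 and -0.05. Xaf1 read 4.62, 5.12 and 5.26 in Control and 5.14, 4.58, 4.85, 5.22 and 4.77 on the TNF arrays. Xaf1 gave 4.99, 5.10 and 5.25 on IL-6 Low arrays, 4.66, 5.02 and 5.27 on IL-6 High arrays, 4.73, 4.85 and 5.05 on TNF + IL-6 Low arrays and 4.68, 5.04 and 5.26 on TNF + IL-6 High arrays. All groups of Xaf1 overlapped Control. Rtp4 read 4.96, 5.18 and 5.32 in Control and 5.29, 5.19, 5.31, 5.18 and 5.00 on the TNF arrays. Rtp4 gave 4.83, 5.12 and 5.35 on IL-6 Low arrays, 4.77, 5.06 and 5.49 on IL-6 High arrays, 5.03, 5.21 and 5.36 on TNF + IL-6 Low arrays and 5.11, 5.36 and 5.65 on TNF + IL-6 High arrays. Rtp4, which encodes a chaperone of receptors, differed by 0.01, -0.07, -0.10, 0.02 and 0.17, and the arrays overlapped. Ifi27 differed by -0.06, -0.11, -0.12, -0.15 and -0.05 and Ifi35 by -0.11, 0.07, 0.07, 0.05 and -0.06. None of these differences exceeded 0.21 in size. Isg20 encodes an exonuclease that degrades RNA. Isg20 read 6.03, 6.17 and 6.84 in Control and 6.15, 6.08, 6.33, 6.51 and 5.88 on the TNF arrays. Isg20 gave 5.65, 6.15 and 6.34 on IL-6 Low arrays, 5.74, 6.25 and 6.35 on IL-6 High arrays, 5.76, 6.13 and 8.61 on TNF + IL-6 Low arrays and 5.81, 6.16 and 6.40 on TNF + IL-6 High arrays. Isg20 had the largest within-group SD of the members, 0.50, and its difference of 0.24 in TNF + IL-6 Low (upper limit 0.76) rested on replicate 3. Without that array it was -0.18, with an upper limit of 0.11. The other differences of Isg20 were -0.08, -0.18, -0.14 and -0.14.

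Without TNFα, the dose of IL-6 made no detectable difference to the members. The 2 doses given with TNFα were not compared with each other. Between IL-6 High and IL-6 Low, 0 of 41 had an unadjusted p under 0.05 beside 1.45% of all genes, and limma's lowest adjusted p among them was 0.9994. The differences ran from -0.20 for Oas1a to 0.10 for Irf7, and the upper limit lay below 1.5-fold for all 41. Departure from additive effects of TNFα and IL-6 was measured less tightly. With IL-6 Low, 0 of 41 had an unadjusted p under 0.05 beside 3.28% of all genes, and the upper limit of the departure lay below 1.5-fold for 33 of 41. With IL-6 High, 2 of 41 did beside 4.01%, and the upper limit lay below 1.5-fold for 31. Those 2 were Usp18, 0.49 (limits 0.08 and 0.89), and Samd9l, 0.46 (limits 0.02 and 0.90), each with an adjusted p of 0.961 in limma. Small positive departures were more frequent among the members. With IL-6 Low, 24.4% of members had a negative departure against 55.9% of all genes, with medians of 0.10 and -0.02. With IL-6 High, 26.8% did against 61.8%, with medians of 0.10 and -0.04. In the second list of 50 genes, 24 had a negative departure with IL-6 Low and 23 with IL-6 High. Both departures use the same Control and TNF arrays, and the excess among the members was not tested.

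The differences were also read by the presence of the response element. The 13 members with a core had median differences of -0.08, -0.04, -0.10, -0.02 and -0.02 in the 5 groups. The 20 tested members whose window lacked it had medians of -0.03, -0.05, -0.08, -0.02 and -0.06. Of the 13 with a core, 10, 9, 11, 7 and 7 were below Control in the 5 groups. Of the 20 without it, 13, 18, 15, 13 and 19 were. Ifit1, Ifit3, Isg15, Oas1a, Rsad2 and Stat2, whose stretches are printed above, had TNF differences of -0.16, -0.23, -0.02, -0.20, -0.02 and 0.06. The difference between these sets was not tested.

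The spread among mice of a group differed between members. The within-group SD of the 41 members had a median of 0.20 on the log2 scale, against 0.17 for all genes tested, and ran from 0.08 for Ifnar2 to 0.50 for Isg20. Ifitm3 followed with 0.41, Oas1a with 0.30, Oas2 and Samd9l with 0.28, Ifit3 and Lgals3bp with 0.27 and Dhx58 with 0.26. Averaged over the members, an array deviated from the Control mean by -0.13 to 0.14 in Control and -0.12 to -0.03 in TNF. IL-6 Low arrays covered -0.16 to 0.03, IL-6 High arrays -0.15 to -0.04, TNF + IL-6 Low arrays -0.20 to 0.17 and TNF + IL-6 High arrays -0.17 to 0.06. Every treated range overlapped that of Control. Over the 820 pairs of members the median correlation of deviations from the group means was 0.12 across the 35 arrays, against 0.07 over all pairs of genes. A correlation of 0.7 or more was found in 0.366% of the 820 member pairs, beside 0.722% of all pairs. The share of member pairs rests on few pairs and does not set the members apart from all genes. Pairs share genes and arrays.

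**Figure D3:**
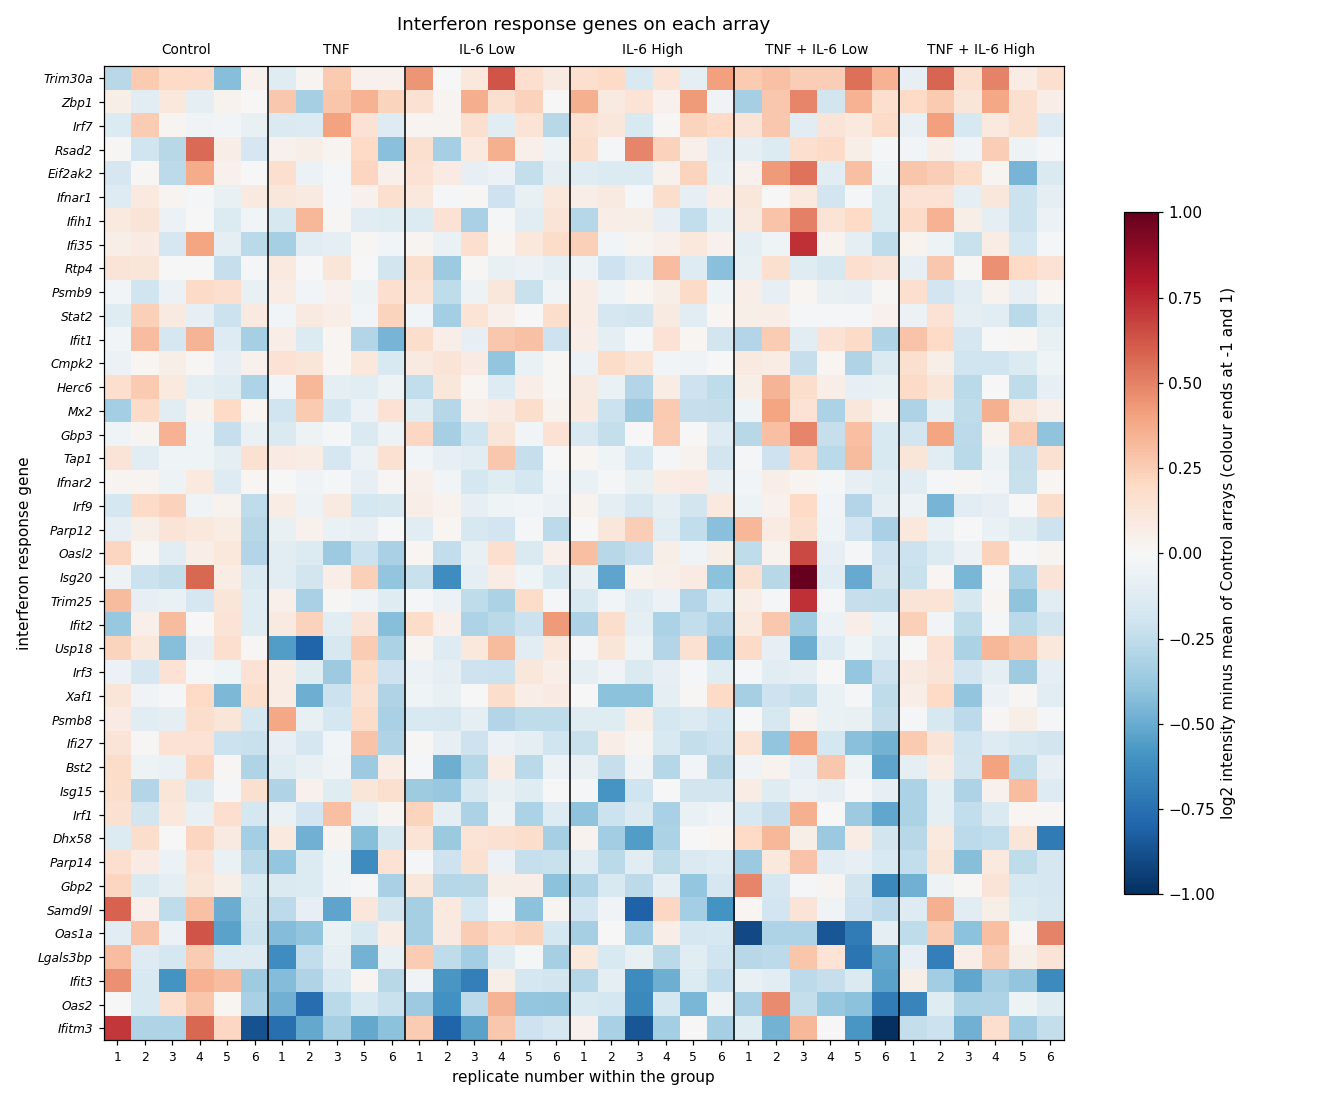
Log2 intensity of each interferon response gene tested (rows) on each of the 35 arrays (columns, by group and replicate number) minus the mean of the Control arrays. Red is above and blue below that mean, the colour ends at -1 and 1, and Isg20 in TNF + IL-6 Low replicate 3 lies beyond it.

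A few arrays carried the high readings. TNF + IL-6 Low replicate 3 was the highest of the 35 arrays for 11 members: Ifih1, Ifi27, Ifi35, Irf1, Isg20, Oasl2, Eif2ak2, Gbp3, Trim25, Parp14 and Zbp1. It read 8.61 for Isg20, 6.01 for Ifi35, 6.28 for Trim25 and 6.65 for Oasl2. The same array was the highest for all 6 pituitary markers, whose mean was 5.71 above Control in log2 against at most 2.01 on any other array. On it the pituitary hormone genes Gh and Prl had intensities of 12150 and 7255, against medians of 50.4 and 16.6 over all arrays. Control replicate 1 was the highest for Ifit3, Ifitm3, Samd9l and Lgals3bp. That array also had the highest mean of the meningeal markers, 0.83, and of the 12 markers Dcn, Slc13a4, Aldh1a2, Osr1, Fmod and Ogn were highest there. Control replicate 4 was the highest for Ifit1, Oas1a, Rsad2, Psmb9 and Ifnar2, and its meningeal mean was 0.75. TNF + IL-6 Low replicate 2 was the highest for Mx2, Oas2, Dhx58 and Herc6, as many members as Control replicate 1, and its meningeal mean was -0.65. TNF + IL-6 High replicate 4 was the highest for Usp18, Bst2 and Rtp4, with a meningeal mean of 0.40.

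The mean of the meningeal markers ran from -1.07 to 0.83 among the Control arrays and from -0.90 to 0.19 in TNF. IL-6 Low arrays gave -1.12 to 0.30, IL-6 High arrays -1.20 to 0.13, TNF + IL-6 Low arrays -1.08 to -0.11 and TNF + IL-6 High arrays -0.71 to 0.40. All 12 of these genes were measured, and none lacked signal on all arrays. Endothelial markers ran from -0.33 to 0.21 in Control, -0.52 to 0.04 in TNF, -0.52 to 0.19 on IL-6 Low arrays, -0.60 to 0.16 on IL-6 High arrays, -0.33 to 0.04 on TNF + IL-6 Low arrays and -0.49 to 0.44 on TNF + IL-6 High arrays. The mean of the microglial markers ran from -0.16 to 0.13 in Control, -0.07 to 0.29 in TNF, -0.11 to 0.10 on IL-6 Low arrays, -0.24 to 0.11 on IL-6 High arrays, -0.23 to 0.14 on TNF + IL-6 Low arrays and -0.18 to 0.25 on TNF + IL-6 High arrays. The part of these cells in the members' readings was not tested. Leaving out Control replicate 1 and TNF + IL-6 Low replicate 3 together, a setting chosen after seeing the data, left 0 calls and moved the TNF difference of Ifitm3 to -0.36 and of Ifit3 to -0.14. Without these 2 arrays the counts of members below Control were 27, 31, 32, 31 and 28 of 41, and the upper limit lay below 1.5-fold for 41 of 41 members in all 5 groups.

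**Figure D4:**
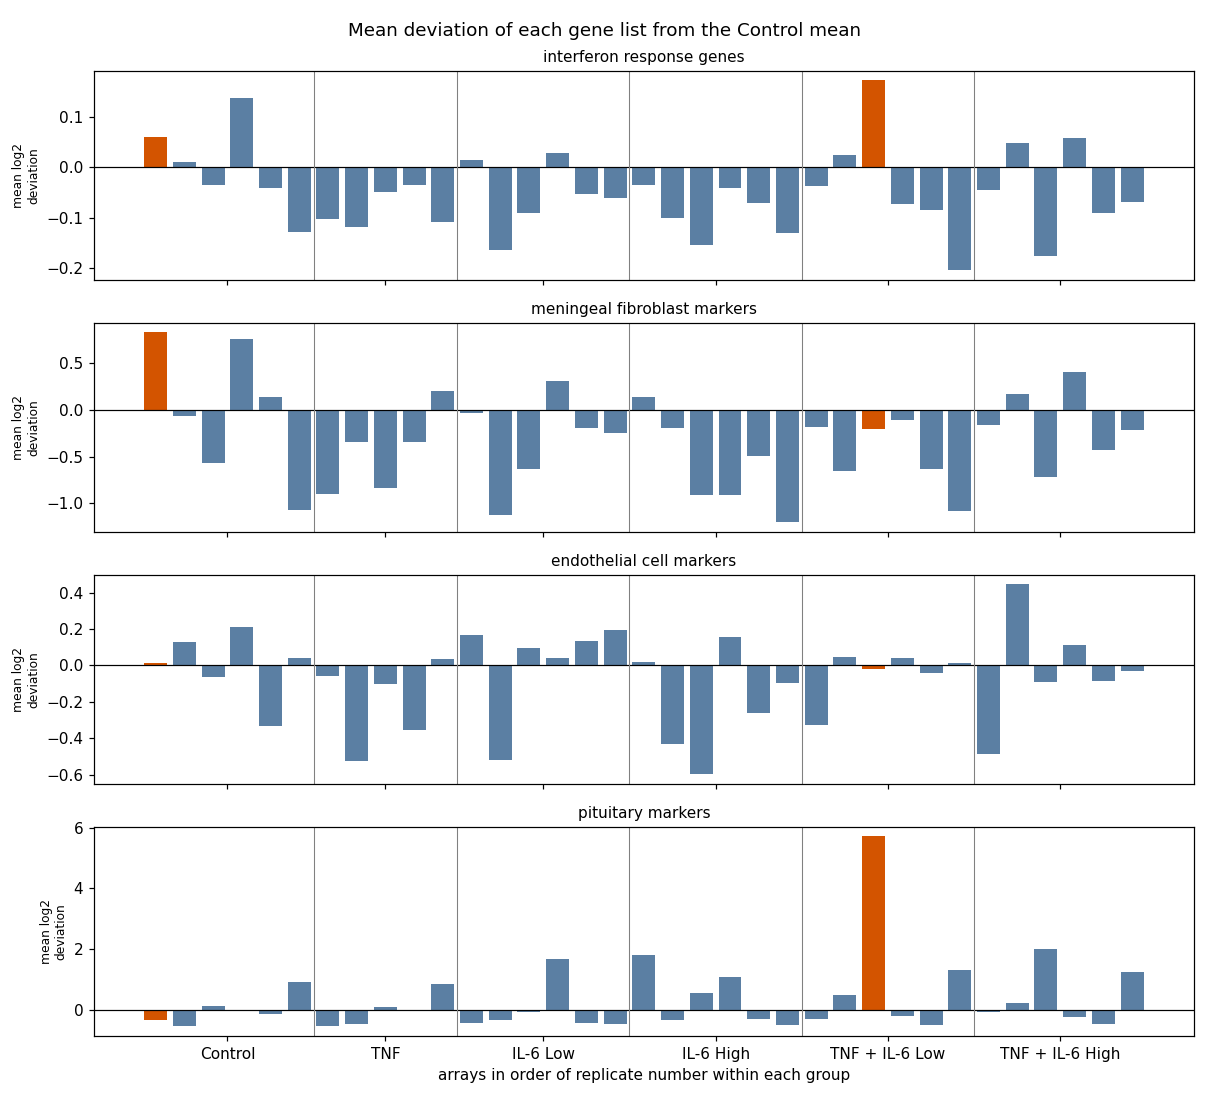
Mean log2 deviation from the Control mean (y axes, with separate scales) of the 41 interferon response genes and of the meningeal fibroblast, endothelial cell and pituitary markers on each of 35 arrays (bars). Orange bars mark Control replicate 1 and TNF + IL-6 Low replicate 3, where the meningeal mean is 0.83 and the pituitary mean 5.71.

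The ligands and the rest of the pathway were read from a second list of 74 genes, of which 62 were annotated and 50 passed the filter. Ifnb1, the gene of interferon beta, was under an intensity of 20 on all 35 arrays, with readings from 8.41 to 14.3. Ifng was over 20 on 1 array, and Cxcl10, a chemokine induced by interferon, on none. The receptor chains of interferon gamma were well measured: Ifngr1 differed by 0.11, 0.08, 0.00, 0.06 and 0.06 and Ifngr2 by 0.00, -0.06, -0.02, -0.10 and -0.04. Jak1 differed by 0.09, 0.01, 0.07, -0.03 and -0.02, and Tyk2 by -0.17, 0.05, -0.08, -0.14 and -0.04. None of the 50 had an adjusted p under 0.05. At an unadjusted p under 0.05, TNF had 1 higher and 2 lower (beside 5.29% of all genes), IL-6 Low had 0 (1.40%) and IL-6 High had 1 higher (2.07%). TNF + IL-6 Low had 3 higher and 3 lower of 50 (9.58%), and TNF + IL-6 High had 2 higher and 1 lower (2.05%). In TNF these were Ly6e, which restricts virus entry, at -0.32, Adar, an RNA editing enzyme, at -0.14, and Tlr7, a receptor of single-stranded RNA, at 0.29, each with an adjusted p of 0.911 in limma. In TNF + IL-6 High, Nlrc5, the transactivator of MHC class I genes, differed by 0.44. Its limits were 0.07 and 0.80, and its adjusted p in limma was 0.9997. Nlrc5 had 19 clusters, and only the one of highest mean was read.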

How the data were processed

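Hypothalamic RNA of single mice was hybridised to Affymetrix Mouse Gene 1.1 ST arrays. The authors deposited log2 intensities from RMA (version not given in the sources used), and these values were analysed as they stood. Of 35556 transcript clusters, 21218 name 1 gene, 1881 several and 12457 none, and only the first kind was used. Genes needed 3 or more arrays with an intensity over 20, as in the study's methods, whose further condition on the number of probes per gene and remapping of probes were not applied.

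One linear model over 6 groups was fitted to 15049 genes and 35 arrays with limma 3.58.1 in R 4.3.3 (lmFit, eBayes with trend). Benjamini-Hochberg adjustment covered all these genes. The script was tested on simulated data. The genes given by group readings are the Ifit, Oas, Irf, Mx and Ifnar families, Isg15, Stat2, Usp18 and Rsad2, the 3 members of lowest p in each direction per comparison and the 8 of largest SD. The members and lists were chosen with earlier results of these data known. Alternatives changed the arrays, filter, normalization, weights, prior, samples in the fit, cluster choice and replicate block. Ifi44 was not analysed here.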

Additional observations from a re-analysis of the deposited data

Results flagged for a closer look

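Of 180 sets of arrays (30 members in 6 groups), 10 held an array far from the others of its group. In each of these 10, the gap from that array to the next, divided by the range of the group, passed Dixon's 95% limit. The 30 are the tested members given by group readings, chosen partly by low p and large SD in these data. The 5% that chance gives for members chosen beforehand is therefore no measure for this count. TNF + IL-6 Low replicate 3, the array with the pituitary markers, was high for Isg20 (0.769) and Oasl2 (0.690). TNF + IL-6 Low replicate 5 was high for Trim30a (0.656). IL-6 Low replicate 4 was high for Oas2 (0.637) and IL-6 High replicate 3 for Psmb8 (0.688). The low arrays were TNF replicate 2 for Zbp1 (0.809), TNF replicate 6 for Rsad2 (0.726), IL-6 High replicate 2 for Isg15 (0.671), TNF + IL-6 High replicate 2 for Lgals3bp (0.649) and Control replicate 5 for Xaf1 (0.640).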

How the results depend on the processing

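No member and no other gene reached an adjusted p under 0.05 in limma under any alternative run. Leaving out 1 array at a time, the median member difference of TNF ran from -0.09 to -0.03, that of IL-6 Low from -0.07 to -0.04, of IL-6 High from -0.11 to -0.08, of TNF + IL-6 Low from -0.05 to 0.00 and of TNF + IL-6 High from -0.07 to -0.02. With all 36 arrays the TNF median was 0.01, with 16 of 41 members below Control, and the TNF difference of Ifnar1 was -0.26. Array weights gave Stat2 in TNF -0.00165 and Ifit1 in IL-6 Low -0.011, and without Control replicates 5 and 6 the latter was -0.030. Median centring turned the median in TNF + IL-6 Low to 0.02. Same-numbered replicates were not treated as pairs. The median correlation of their deviations from the group means was 0.07 (range -0.31 to 0.58). For arrays of other replicate numbers it was -0.03 (range -0.42 to 0.50). A replicate block left 0 calls. It gave 3, 2, 2, 2 and 1 members at an unadjusted p under 0.05 in the 5 groups, beside 5.35%, 1.70%, 2.48%, 10.7% and 2.45% of all genes. A minimum intensity of 50 tested 21 members. Detection limits Oas1a, Oas2, Mx2 and Dhx58 most.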
